A study of Homo sapiens with 8 samples.

Results

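SK-ES1 is an established human Ewing sarcoma cell line, and the comparison described here sets its cells with a short hairpin RNA against RING1B (shRING1B) against the same line with a control hairpin against GFP (shGFP). Its members are the arrays labelled with this line and either hairpin, 4 of the 8 arrays of the series and 2 per group. On them 14884 genes were measured, each by the brightest of its probe sets over the 8 arrays. The other 4 arrays hold a second Ewing sarcoma line, A673, with the same pair of hairpins, and are used for the shared estimate of spread and for comparison. All 4 groups therefore carry a hairpin, and none is an untreated line. The labels name a single hairpin target per group and do not give the hairpin sequence, the time after its delivery, or whether the cells were 1 clone. The arrays of a group are not said to be separate cultures, so the p-values measure the spread between these arrays, which may be technical. RNF2, the gene that encodes RING1B, was not analysed here, and the knockdown was not checked at its target.

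RING1B is a ubiquitin ligase of Polycomb repressive complex 1, which marks histone H2A and is best known for holding developmental genes silent, although it also sits at active genes in some cell types. Ewing sarcoma cells depend on a fusion of EWSR1 with an ETS factor, usually FLI1, which turns on some genes through ETS repeats and turns off others. Interferon-stimulated genes, the group that recurs below, encode the antiviral proteins that a cell makes when nucleic acid sensors or interferon receptors signal through STAT and IRF factors. Those factors bind the interferon-stimulated response element, a pair of GAAA cores, in the promoters of many of these genes.

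The deposited log2 values had a median of 4.01 to 4.1 on the 8 arrays, and of 4.08 over the 4 SK-ES1 arrays. The shGFP pair correlated at 0.9927 and the shRING1B pair at 0.9925 across genes, against 0.9909 to 0.9918 between hairpins. The median log2 change over all genes, shRING1B minus shGFP, was -0.0039. All 9 measured markers of Ewing sarcoma cells lay above the array median in SK-ES1 shGFP, beside 10579 of all 14884 genes. CD99, the membrane antigen used to diagnose the tumour, stood at 11.47 and 11.25 in shGFP and 11.53 and 11.34 in shRING1B. NKX2-2, a homeobox target of the fusion, stood at 7.73, 7.82, 7.58 and 7.51 in the same order. Of 38 markers of immune, endothelial, fibroblast and muscle cells, 22 were measured. Their mean log2 level was 4.55 and 4.53 with shGFP and 4.52 and 4.58 with shRING1B, above the median of all probe sets, and limma called none of them. In SK-ES1 shGFP 15 of the 22 lay above the array median, among them all 5 fibroblast and muscle markers. Lying above that median therefore does not by itself mark a cell type. In whole-culture RNA, a fall in the number of cells that express a gene and a fall in its RNA per cell cannot be told apart.

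Limma called 10 of the 14884 genes in SK-ES1 (0.0672%) at a Benjamini-Hochberg adjusted p under 0.05, and all 10 were lower with shRING1B. They comprise a peptide receptor (GRPR), an adhesion antigen (CEACAM5), a microtubule-binding protein (MAP7), an R-spondin receptor (LGR5), secretory granule genes (SYT4 and SCG2), a mitotic kinase (NEK7) and interferon-induced genes (CXCL10, BST2 and SP100). At an unadjusted p under 0.05, 614 genes (4.13%) were lower and 481 (3.23%) higher. The exact permutation test over 2 against 2 arrays cannot give a two-sided p below 0.333, so no gene was tested that way.

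A wider description used a rule without a test. A gene was counted as consistently lower or higher when both shRING1B arrays lay on the same side of both shGFP arrays and the means differed by at least 0.5 on the log2 scale. By this rule 139 genes (0.934%) were consistently lower and 63 (0.423%) consistently higher. With each array centred on its median the counts were 177 and 43, which moved the share of lower genes from 68.8% to 80.5%, and that scaling shifted the median over all genes by less than 0.1, to -0.0411. Of the lower genes, 104 were protein-coding and 24 were miRNA genes, and of the higher genes 34 were protein-coding and 18 miRNA genes. Protein-coding genes are 80.1% of the genes measured, 74.8% of those consistently lower and 54% of those consistently higher. The shares of miRNA genes are 7.2%, 17.3% and 28.6% in the same order. Of all miRNA genes measured, 34.3% lay above the array median in the higher SK-ES1 group. The larger differences were on the lower side, with 14 genes lower and 1 higher by at least 1 on the log2 scale.

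**Figure D1:**
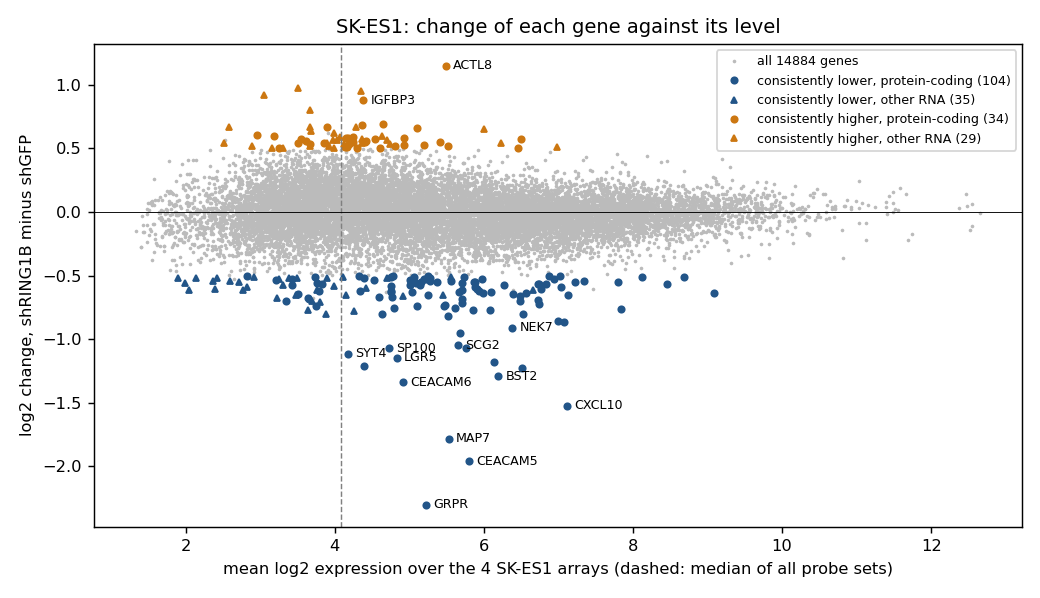
The log2 change of each of the 14884 genes in SK-ES1 (shRING1B minus shGFP, vertical axis) is plotted against its mean log2 level over the 4 SK-ES1 arrays (horizontal axis), with consistently lower genes in blue and consistently higher genes in orange. The blue points reach -2.30 (GRPR), while the highest orange point is ACTL8 at 1.15.

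The promoter windows of 5 interferon-stimulated genes from the lower group are printed here because they show the response element that is counted below in all promoters. Sequences are from RefSeq on GRCh38.p14, read 5′ to 3′ on the strand of the gene, and capitals mark each match to GAAANNGAAA on either strand. CXCL10 (chr4:76023679-76023747, minus strand) holds its match 221 bases before the gene's start. BST2 (chr19:17405715-17405790, minus strand) holds overlapping matches that begin 130 and 124 bases before it. IFI44L (chr1:78620254-78620414, plus strand) holds 2 matches inside a repeated stretch, at 164 and 73 bases. IFIT1 (chr10:89392477-89392559, plus strand) holds 2 in the reverse orientation, at 116 and 103 bases. IFI44 (chr1:78649741-78649788, plus strand) holds 1 in the reverse orientation, 18 bases before its start.
CXCL10: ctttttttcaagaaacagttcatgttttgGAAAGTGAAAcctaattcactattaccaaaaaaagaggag
BST2: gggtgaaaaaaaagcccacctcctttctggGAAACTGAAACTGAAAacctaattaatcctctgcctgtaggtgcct
IFI44L: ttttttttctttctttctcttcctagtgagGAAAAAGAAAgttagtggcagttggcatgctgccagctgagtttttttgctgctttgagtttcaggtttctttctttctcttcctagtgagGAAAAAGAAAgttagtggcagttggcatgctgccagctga
IFIT1: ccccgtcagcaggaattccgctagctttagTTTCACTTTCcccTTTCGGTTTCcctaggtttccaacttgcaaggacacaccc
IFI44: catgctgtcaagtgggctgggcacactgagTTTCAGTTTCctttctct

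CXCL10, a chemokine that attracts T cells and is induced by interferon, stood at 7.85 and 7.91 in the shGFP arrays and at 6.10 and 6.61 in the shRING1B arrays. Both shRING1B arrays lay below both shGFP arrays, and the first was the lowest. CXCL10 fell by 1.53 on the log2 scale, a 2.88-fold drop (standard error 0.178, limma adjusted p = 0.0155). BST2, or tetherin, which holds budding virus at the cell surface, stood at 6.77 and 6.91 in shGFP and at 5.54 and 5.55 in shRING1B. The groups were well apart, and BST2 fell by 1.29, or 2.45-fold (standard error 0.126, limma adjusted p = 0.00605). SP100, a nuclear body protein that represses incoming viral DNA, stood at 5.38 and 5.15 against 4.03 and 4.35 and fell by 1.07 (standard error 0.138, limma adjusted p = 0.0284). With 1 of the 8 arrays left out in turn, CXCL10 kept its call in 5 of 8 fits, BST2 in 4 and SP100 in 0. The limma adjusted p then reached 0.16 for CXCL10 without SK-ES1 shGFP replicate 2, 0.1 for BST2 without SK-ES1 shRING1B replicate 1 and 0.255 for SP100 without SK-ES1 shGFP replicate 1.

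These 3 genes stood in a wider group. Of 67 measured genes of a 95-gene interferon list, 52 had a change below 0 in SK-ES1, beside 7591 of all 14884 genes. At an unadjusted p under 0.05, 32 were lower and none higher, beside 4.13% and 3.23% of all genes. The arrays did not overlap, with shRING1B lower, for 46 of the 67, against 19.3% of all genes, and with shRING1B higher for 5, against 17.8%. Consistently lower were 22 of the 67 (32.8%), beside 0.934% of all genes, and none was consistently higher. The same shares of all genes are the background for each role below. The median change of the list was -0.34, beside -0.0039 over all genes. Averaged over its genes, the log2 level was 5.997 and 6.021 with shGFP and 5.646 and 5.638 with shRING1B, so both shRING1B arrays lay below both controls. With single arrays left out the median ranged from -0.367 to -0.286.

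The antiviral effectors were the largest role in the list. Of 34 measured, 20 were lower at an unadjusted p under 0.05 (58.8%, beside 4.13% of all genes). Consistently lower were 12 (35.3%, beside 0.934% of all genes), and the median change was -0.43. IFI44L, an interferon-induced protein of unsettled function, stood at 7.02 and 7.24 in shGFP and at 6.13 and 5.67 in shRING1B, a change of -1.23 (limma adjusted p = 0.0525). IFIT1, which binds viral RNA that lacks a host cap, stood at 6.40 and 6.20 against 5.01 and 5.45, a change of -1.07 (limma adjusted p = 0.07). IFI44 stood at 7.38 and 7.64 against 6.69 and 6.58, a change of -0.87 (limma adjusted p = 0.0525). In each of the 3 the shRING1B arrays lay below the shGFP arrays, just outside the threshold for a call. SAMD9, an antiviral and growth-restricting protein, had a change of -1.22 that came unevenly from its arrays. It stood at 5.02 and 4.97 in shGFP and at 4.28 and 3.29 in shRING1B (limma adjusted p = 0.224). The membrane proteins IFITM1 and IFITM3, which block virus entry, had changes of -0.56 (limma adjusted p = 0.152) and -0.55 (0.217). PLSCR1 and HERC6 had changes of -0.72 and -0.74. EIF2AK2, the RNA-activated kinase PKR, had a smaller change of -0.36.

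Kinases and transcription factors that run the response had a median change of -0.11. IRF7 and IRF9, the transcription factors that amplify it, had changes of -0.69 (limma adjusted p = 0.114) and -0.65 (0.152). IRF7 stood at 6.06 and 6.04 in shGFP and at 5.44 and 5.30 in shRING1B. IRF9, the DNA-binding partner of the STAT pair, stood at 7.48 and 7.42 against 6.90 and 6.70. Both genes were thus separated by hairpin on every array. Of the 12 measured kinases and transcription factors, 4 were consistently lower (SP100, SP110, IRF7 and IRF9). Of 9 sensors and adaptors 2 were consistently lower. RIGI, the RNA sensor, stood at 7.29 and 7.54 against 6.62 and 6.50, a change of -0.86 (limma adjusted p = 0.0692). IFIH1, its relative MDA5, had a change of -0.54. The receptor chains IFNGR1 and IFNGR2 had changes of -0.13 and -0.07, and the interferon genes themselves were not analysed here.

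Among the 7 genes of the ISG15 system and its feedback inhibitors, 1 was consistently lower. It was UBA7, the enzyme that activates the ubiquitin-like ISG15 (-0.54, limma adjusted p = 0.494). ISG15 itself stood at 8.79 and 8.93 in shGFP and at 8.32 and 8.68 in shRING1B, a change of -0.36. Of 4 chemokines 3 were consistently lower, and the mean level of the 4 was 5.54 and 5.67 in shGFP against 4.67 and 4.99 in shRING1B. CXCL11, which shares its receptor with CXCL10, had a change of -0.95 (limma adjusted p = 0.321), with 5.98 and 6.33 against 4.86 and 5.54. CCL5 had a change of -0.58. The peptide-trimming enzyme ERAP1 was the consistently lower member of 9 measured antigen presentation genes (-0.67, limma adjusted p = 0.145), and the median of those 9 was -0.22. The NF-kB and cytokine list did not shift the same way, with a median of 0.04 over 24 genes. At an unadjusted p under 0.05, 3 were lower and 3 higher, beside 4.13% and 3.23% of all genes. Within it CCL2, a monocyte chemokine, had a change of -0.70 from a level below the array median, and TNF had -0.42.

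**Figure D2:**
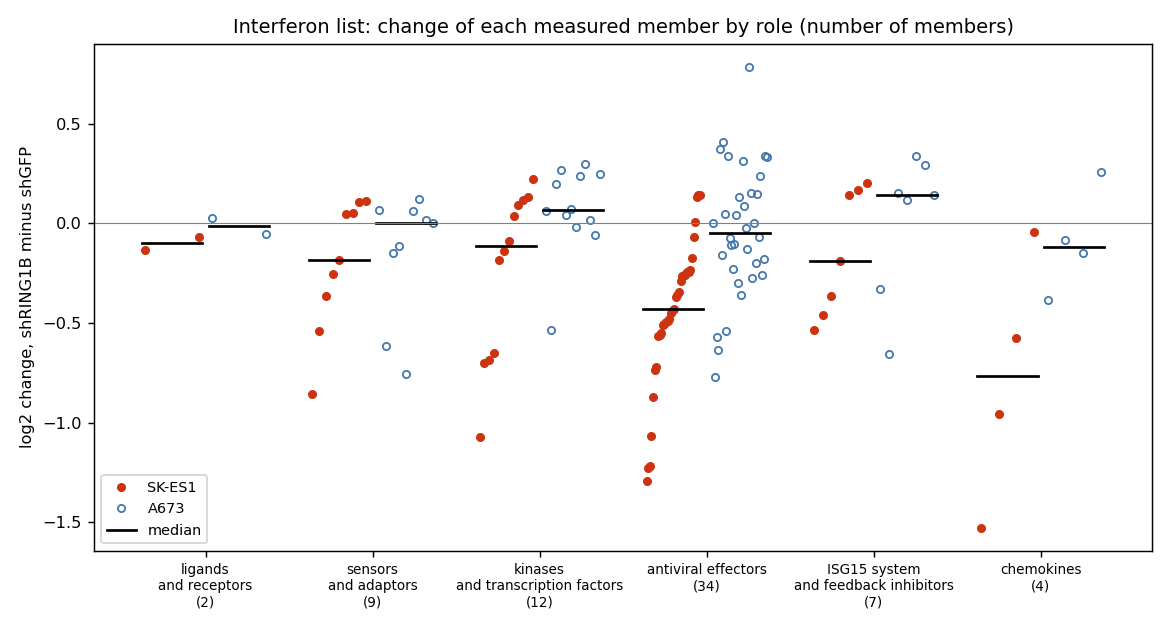
Each point is the log2 change (shRING1B minus shGFP) of 1 measured gene of the interferon list, grouped by role along the horizontal axis, with SK-ES1 in filled red and A673 in open blue, and black bars mark medians. In SK-ES1 the antiviral effectors have a median of -0.43 and the chemokines of -0.77, and in A673 of -0.05 and -0.12.

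The response element was counted in the promoters of all genes with a window. GAAANNGAAA was searched on both strands from 250 bases before to 50 after each gene's start, in RefSeq windows on GRCh38.p14 that matched 10749 of the measured genes. It occurred in 3.57% of all 35116 windows and in 418 of the 10749 genes (3.89%). Of 81 consistently lower genes with a window, 19 (23.5%) held it, and of 34 consistently higher genes 2 (5.88%). Inside the interferon list, the 29 genes with the motif had a median change of -0.49 and 13 were consistently lower, while the 21 without it had a median of -0.25 and 6 were consistently lower. Outside the list, the 389 genes with the motif had a median of -0.01, and 6 of them (1.54%) were consistently lower. The 10310 genes outside the list without the motif had a median of -0.0046, and 56 of them (0.543%) were consistently lower. The repeat GGAAGGAA, a pair of ETS cores searched the same way, occurred in 3.67% of windows, in 4.94% of genes and in 7.41% of the consistently lower genes. A match describes letters in these windows and is no evidence of binding.

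GRPR, the receptor of gastrin-releasing peptide which is also on the list of targets reported as activated by EWSR1-FLI1, had the lowest change of all genes. It stood at 6.22 and 6.54 in shGFP and at 4.19 and 3.96 in shRING1B. The shRING1B arrays lay on either side of the median of all probe sets, far below both shGFP arrays. GRPR fell by 2.30, or 4.94-fold (standard error 0.15, limma adjusted p = 0.000411), and it was called with each single array left out. A second GRPR probe set stood at 3.12 and 3.08 against 3.02 and 3.21, below the array median in every group, and had a change of 0.01, so the mean of both probe sets had a change of -1.15. Of the other 35 measured neuropeptides and peptide receptors none was called, and the list's median was 0.04. NTS, which encodes neurotensin, was consistently lower at -0.55 (limma adjusted p = 0.53).

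SYT4 and SCG2 belong to the regulated secretory pathway of neurons and endocrine cells. SYT4, a calcium-sensor relative on secretory vesicles, stood at 4.66 and 4.81 in shGFP and at 3.62 in both shRING1B arrays, below the array median. SYT4 fell by 1.12 (standard error 0.136, limma adjusted p = 0.0202). SCG2, the granule protein secretogranin II, stood at 6.03 and 6.32 against 4.99 and 5.26 and fell by 1.05 (standard error 0.142, limma adjusted p = 0.0361). SCG2 stayed well above the array median in both groups. The call of SCG2 was lost in all 8 fits that left out 1 array, with a limma adjusted p of up to 0.349. SYT4 kept its call in 4 of those 8 fits, and its adjusted p was 0.246 without SK-ES1 shRING1B replicate 2. Of 36 measured neurosecretory genes, these 2 were called and 2 more were consistently lower. They were SV2B, a synaptic vesicle protein (-0.66, limma adjusted p = 0.0941), and PRPH, the neuronal filament peripherin (-0.53, limma adjusted p = 0.338). The list as a whole had a median of -0.04, so most neurosecretory genes stayed close to 0. Other consistently lower genes of synapse and secretion, named after their values were seen, were RIMS2 (-0.56), CBLN2 (-0.62) and NXPH4 (-0.55). RIMS2 lay below the array median on each SK-ES1 array.

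CEACAM5, the carcinoembryonic antigen of epithelial tumours, stood at 7.07 and 6.49 in shGFP and at 4.97 and 4.67 in shRING1B. Its shGFP arrays stood apart from each other, and the lower of them was above both shRING1B arrays. CEACAM5 fell by 1.96, or 3.89-fold (standard error 0.202, limma adjusted p = 0.0078). It kept its call in 5 of 8 fits that left out 1 array, and its adjusted p was 0.133 without SK-ES1 shRING1B replicate 2. CEACAM6, its neighbour and closest relative, stood at 5.88 and 5.28 against 4.36 and 4.12, a change of -1.34 (limma adjusted p = 0.0525). Both genes ranked the 4 arrays in the same order. Because CEACAM genes are alike in sequence, the value of any single member is uncertain. Among 21 measured members of the CEACAM family, 3 were consistently lower and the median was -0.03. TJP1, the tight-junction scaffold ZO-1, had a change of -0.80 (limma adjusted p = 0.0941), with 6.92 in both shGFP arrays and 6.30 and 5.94 in shRING1B. Epithelial markers as a group were not lower, with a median of 0.11 over 23 genes. KRT18 had a change of 0.36 and PKP1, a desmosomal plaque protein, of 0.36. The clustered protocadherins PCDHB11, PCDHB14 and PCDHB3, named after their values were seen, had changes of -0.77, -0.63 and -0.53. PCDHB3 lay below the array median on each SK-ES1 array (limma adjusted p = 0.528).

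MAP7, which recruits kinesin-1 to microtubules, stood at 6.43 and 6.40 in shGFP and at 4.53 and 4.74 in shRING1B. MAP7 fell by 1.78, or 3.44-fold (standard error 0.138, limma adjusted p = 0.00111), and it was called with each single array left out. NEK7, a kinase of the mitotic spindle and of the NLRP3 inflammasome, stood at 6.83 and 6.84 against 5.94 and 5.91. Replicates agreed closely on both sides, and NEK7 fell by 0.91 (standard error 0.12, limma adjusted p = 0.0312), and its call was lost in all 8 fits that left out 1 array, where the adjusted p reached 0.296. None of the other 31 measured genes of microtubule transport and of the NEK family was called or consistently lower, and the median of all 33 was -0.02.

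LGR5, the R-spondin receptor that marks stem cells in several epithelia, stood at 5.31 and 5.50 in shGFP and at 4.29 and 4.23 in shRING1B. LGR5 fell by 1.15, or 2.21-fold (standard error 0.122, limma adjusted p = 0.00824), and it kept its call in 4 of 8 fits that left out 1 array, with an adjusted p of up to 0.133. LGR4, the related receptor, stood at 5.63 and 5.47 against 5.04 and 4.97, a change of -0.54 (limma adjusted p = 0.231). The third receptor of the family, LGR6, had a change of 0.27 in the other direction. Over 32 measured Wnt genes the median was -0.04, and ASCL2, a Wnt-driven stem cell factor, had a change of -0.34. Of growth factor genes, IGFBP7, a secreted IGF-binding protein, had a change of -1.18 (limma adjusted p = 0.321). It stood at 6.80 and 6.65 in shGFP and at 5.25 and 5.84 in shRING1B. IGF1 itself, a target of the fusion, stood at 7.67 and 7.33 against 7.29 and 6.60, a change of -0.55 (limma adjusted p = 0.649). Its shRING1B arrays were further apart than the groups were on their nearest arrays. The Wnt inhibitors FRZB and TMEM88 had changes of -0.74 and -0.76, the first from a level near the array median.

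**Figure D3:**
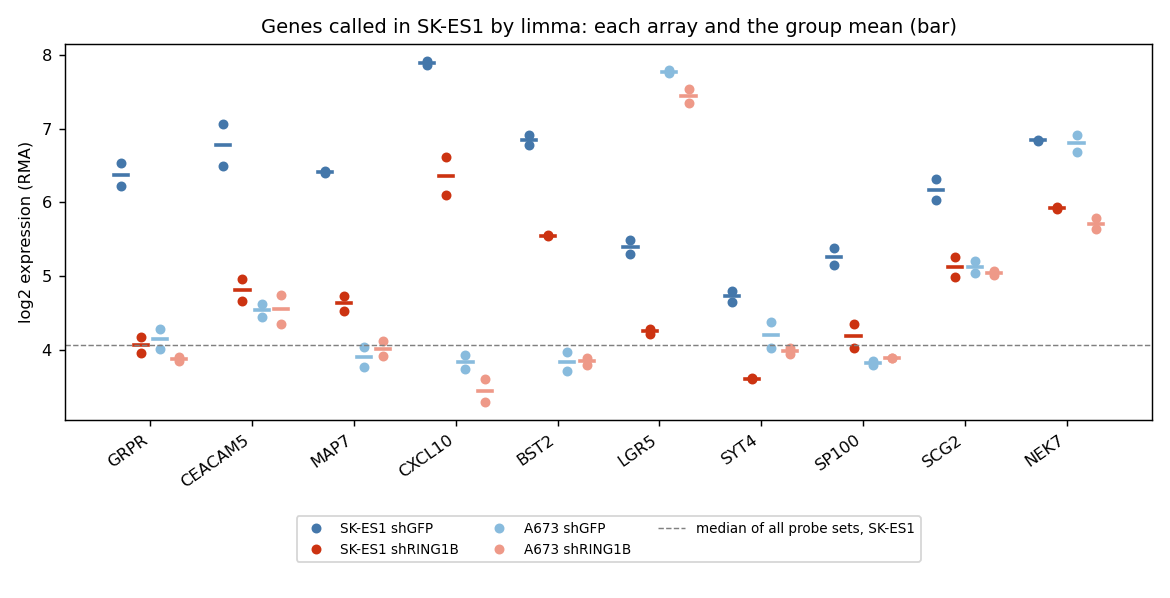
Log2 expression (vertical axis) of the 10 called genes is shown on each array, with the group mean as a bar, for SK-ES1 in dark and A673 in light colours. In every gene both SK-ES1 shRING1B points lie below both SK-ES1 shGFP points, and GRPR and MAP7 drop to 4.07 and 4.64.

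The lists closest to RING1B and to the fusion shifted little. Of 34 measured Polycomb genes, 23 from complex 1 and 11 from complex 2, none was called or consistently changed and the median was 0.02. SCML1 had the smallest p of them, with a change of -0.45 (limma adjusted p = 0.521). Of 169 measured developmental transcription factors none was called, and the median was -0.02. At an unadjusted p under 0.05, 8 were lower and 5 higher, beside 4.13% and 3.23% of all genes. Consistently lower were TWIST1, a mesenchymal factor (-0.67, limma adjusted p = 0.152), HOXB5 (-0.55) and DLX3 (-0.61), and consistently higher was POU4F2, a retinal factor (0.55). TWIST1 stood at 5.06 and 5.15 against 4.53 and 4.35. Among 27 HOX genes 19 lay below 0, with a median of -0.08, and among 142 other factors the median was 0.01. Of 29 measured targets reported as activated by the fusion, 19 lay below 0, and the median was -0.09. GRPR was the called one, and IGF1 was also consistently lower. Of 19 reported as repressed, the median was 0.05. IGFBP3, a secreted brake on IGF signalling, stood at 4.11 and 3.78 in shGFP and at 4.79 and 4.85 in shRING1B, a change of 0.88 (limma adjusted p = 0.07). MMP1, a collagenase on the same list, had a change of -0.64 and lay below the array median on each SK-ES1 array.

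Matrix and mesenchymal genes were mostly on the lower side. Of 28 measured, 24 lay below 0, beside 7591 of all 14884 genes, and the median was -0.10. At an unadjusted p under 0.05, 7 were lower and 1 higher, beside 4.13% and 3.23% of all genes. None of the 28 was called. BGN, the proteoglycan biglycan, stood at 7.02 and 6.75 in shGFP and at 6.41 and 6.08 in shRING1B, a change of -0.64 (limma adjusted p = 0.321). LUM, the related lumican, which is also a fibroblast marker, stood at 6.23 and 6.38 against 5.34 and 5.99, a change of -0.64 (limma adjusted p = 0.53). The shRING1B arrays of LUM differed from each other by more than the nearest arrays of the 2 groups did. Among the fibroblast and muscle markers LUM was the consistently lower gene of 5 measured, and the part of such cells in the result was not tested. The lysyl oxidase relatives LOXL1 and LOXL2, which cross-link collagen, had changes of -0.33 and -0.34. FN1, fibronectin, went the other way at 0.55 (limma adjusted p = 0.463), with 5.30 and 4.98 against 5.86 and 5.51. Outside the list, OGN, PCOLCE and TIMP4, named after their values were seen, had changes of -0.73, -0.58 and -0.54.

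Growth, stress and metabolism lists stayed near 0. Of 21 measured DNA replication genes, 20 lay above 0, with a median of 0.11, and none was called. CLSPN, a replication checkpoint adaptor, had the highest change among them (0.32, limma adjusted p = 0.624), and MCM3, a helicase subunit, stood at 9.53 and 9.55 in shGFP and at 9.73 and 9.82 in shRING1B. For 13 of the 21 the shRING1B arrays lay above both shGFP arrays, beside 17.8% of all genes. Of 26 mitosis genes 19 lay below 0, with a median of -0.03. The medians of the cell cycle, stress and metabolism lists as wholes were 0.03, 0.02 and 0.04, and none of their 60, 40 and 35 measured genes was called or consistently changed.

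**Figure D4:**
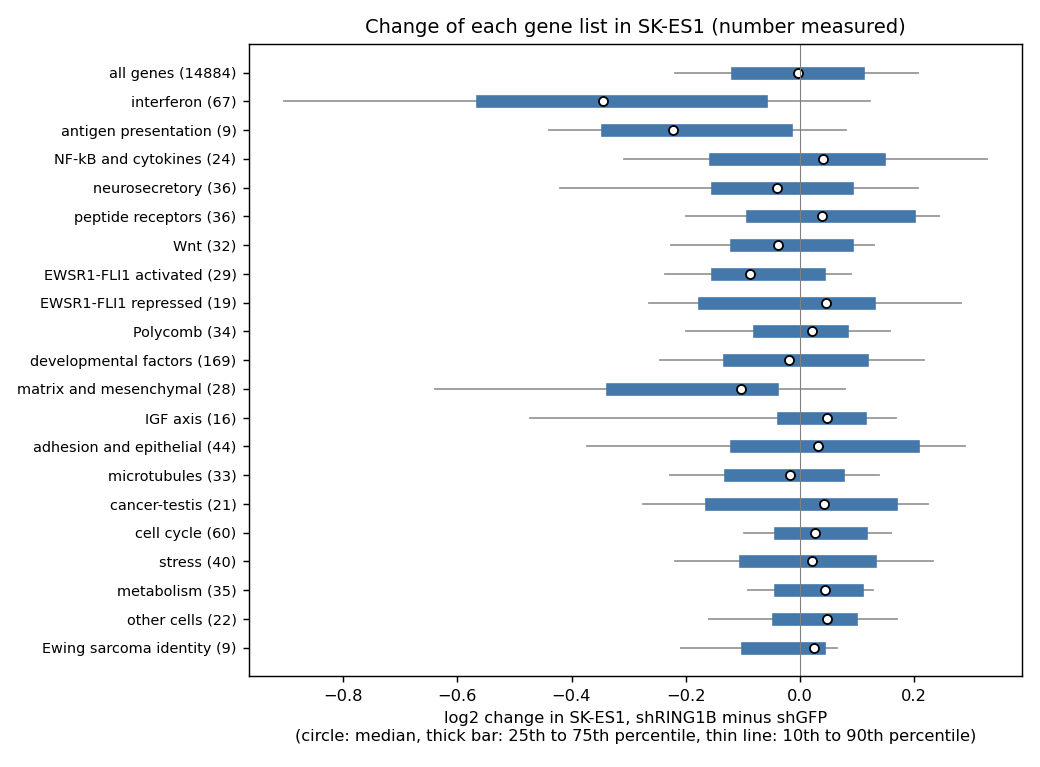
For each gene list, the circle gives the median log2 change in SK-ES1 (shRING1B minus shGFP, horizontal axis), the thick bar the range from the 25th to the 75th percentile and the thin line the 10th to 90th percentile, with all 14884 genes at the top. The interferon list has its median at -0.34, next to antigen presentation at -0.22 and matrix and mesenchymal genes at -0.10.

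The consistently lower protein-coding genes were sorted into classes by known function after their values were seen, so the class counts are descriptions without a test. Of the 104, 28 (26.9%) were interferon-induced or innate immune genes, with changes from -1.53 to -0.50 and a median of -0.68. A further 11 encode transcription factors and corepressors, 8 adhesion proteins, and 8 proteins of secretion, synapse and peptide signalling. Matrix proteins and growth factor or Wnt genes gave 7 each, cytoskeleton and cell division 6, and 29 were in no class. The innate class holds genes outside the interferon list, among them MYD88, the adaptor of Toll-like receptors (-0.57), SHFL, an antiviral inhibitor of frameshifting (-0.63), and OSMR, the oncostatin M receptor (-0.56). Among the transcription factors were RORB (-0.77), EBF1 (-0.60) and RCOR2, a corepressor of neuronal genes (-0.57). Outside every class, CUBN, the endocytic receptor cubilin, stood at 6.05 and 5.81 in shGFP and at 5.35 and 4.87 in shRING1B, a change of -0.82 (limma adjusted p = 0.209). KCNRG, a regulator of potassium channels, stood at 5.01 and 5.06 against 4.04 and 4.42, a change of -0.81 (limma adjusted p = 0.209).

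The consistently higher genes were smaller in number and in size. ACTL8, an actin-like protein of the testis, stood at 5.06 and 4.77 in shGFP and at 5.87 and 6.26 in shRING1B, a change of 1.15 (limma adjusted p = 0.0618). With IGFBP3 it was called when dim genes were left out of the fit and when a trended, robust variance was used. The other 20 measured cancer-testis genes were not consistently changed, and the list's median was 0.04. RGS9BP, an anchor of the visual signalling regulator RGS9, had a change of 0.69 (limma adjusted p = 0.114), and CCL27, a skin chemokine, of 0.58 (0.153). EHD3, an endosomal recycling protein, had a change of 0.66 and CES1, a liver carboxylesterase, of 0.58. The hair follicle keratins KRT71 and KRT72 had changes of 0.67 and 0.58, from levels below the array median in shGFP. HNRNPCL2, which has near-identical copies and is therefore uncertain, had a change of 0.68, and CD209, a lectin of dendritic cells, of 0.59. BSN, a scaffold of the presynaptic zone, had a change of 0.58, FBXO24 of 0.58, UNC93A of 0.56, GSTA1, a glutathione transferase, of 0.55, TTC39B of 0.54 and CTRC, a pancreatic protease, of 0.52. None of these 10 was called. By class, the 34 comprised 7 keratins and tissue-specific enzymes, 5 secreted signalling and matrix proteins, 4 immune cell genes, 4 neuronal or sensory genes, 4 testis-related genes and 10 in no class. Of the 34, 27 (79.4%) lay above the array median in the higher group, beside 95 of the 104 lower genes (91.3%) and 80.5% of all protein-coding genes.

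The same hairpins were compared in A673 to see where SK-ES1 differed, with the difference between lines tested in the same fit. Limma called the difference for 117 genes (0.786%), 24 with the SK-ES1 effect lower and 93 with it higher. The count fell to 0 without SK-ES1 shRING1B replicate 1, to 1 without SK-ES1 shRING1B replicate 2 and to 9 without A673 shGFP replicate 2, so the calls between lines depend on single arrays. Of the 10 genes called in SK-ES1, 9 had a higher mean in SK-ES1 shGFP than in A673 shGFP. All 10 were called for a fall from SK-ES1 shGFP, which favours genes with a high level there. Over all genes the median level was 5.22 in SK-ES1 shGFP and 5.32 in A673 shGFP. In A673 shGFP, GRPR, MAP7, BST2, SP100 and CXCL10 stood at 4.15, 3.91, 3.85, 3.83 and 3.84, near or below the array median. Their A673 changes were -0.26, 0.12, 0.00, 0.06 and -0.39, and none was called there. Such levels may limit the fall that can be measured in A673, although IFIH1 was called lower there with means of 3.79 and 3.17. For these genes a difference in response between the lines cannot be told apart from the difference in starting level. LGR5 was the called gene with the higher mean in A673 shGFP, at 7.77. Its A673 change was -0.33 (limma adjusted p = 0.179) and its difference between lines -0.82 (limma adjusted p = 0.0654). SCG2 also stood above the array median in A673 shGFP, at 5.12. Its A673 change was -0.08 (limma adjusted p = 0.81) and its difference between lines -0.97 (limma adjusted p = 0.0627).

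NEK7 was called in both lines when all arrays were used. In A673 it stood at 6.69 and 6.91 in shGFP and at 5.64 and 5.79 in shRING1B and fell by 1.09 (limma adjusted p = 0.00135). The difference between lines was 0.17 (standard error 0.17, limma adjusted p = 0.713). Of the 139 consistently lower genes, 17 were called lower in A673, where 3.04% of all genes were called lower and 0.705% higher. OSMR, also among the 139, was called higher in A673 (0.59, limma adjusted p = 0.0361). Its difference between lines was -1.14 (limma adjusted p = 0.0259). An A673 change below 0 was seen for 88 of the 139, beside 7116 of all 14884 genes. Those called lower in A673 include IFI44L (-0.77, limma adjusted p = 0.0477) and IFIH1 (-0.61). Others included TMEM88 (-1.51), PRPH (-1.44) and RCOR2 (-1.21), each lower there than in SK-ES1. Of the 63 consistently higher genes, none was called higher in A673, 2 were called lower, and 27 had an A673 change above 0.

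The interferon list had a median of 0.00 in A673, with 31 of 67 members below 0. Its median log2 level under shGFP was 5.95 in SK-ES1 and 4.92 in A673, so the list started from a higher level in SK-ES1. The difference between lines was called for 7 of the 67 genes. They were BST2, SP100 and IFI44, with IRF7 (limma adjusted p = 0.0495), IRF9 (0.045), PLSCR1 (0.0364) and IFITM3 (0.0431), and the A673 changes of the last 4 were 0.20, 0.27, 0.41 and 0.34.

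**Figure D5:**
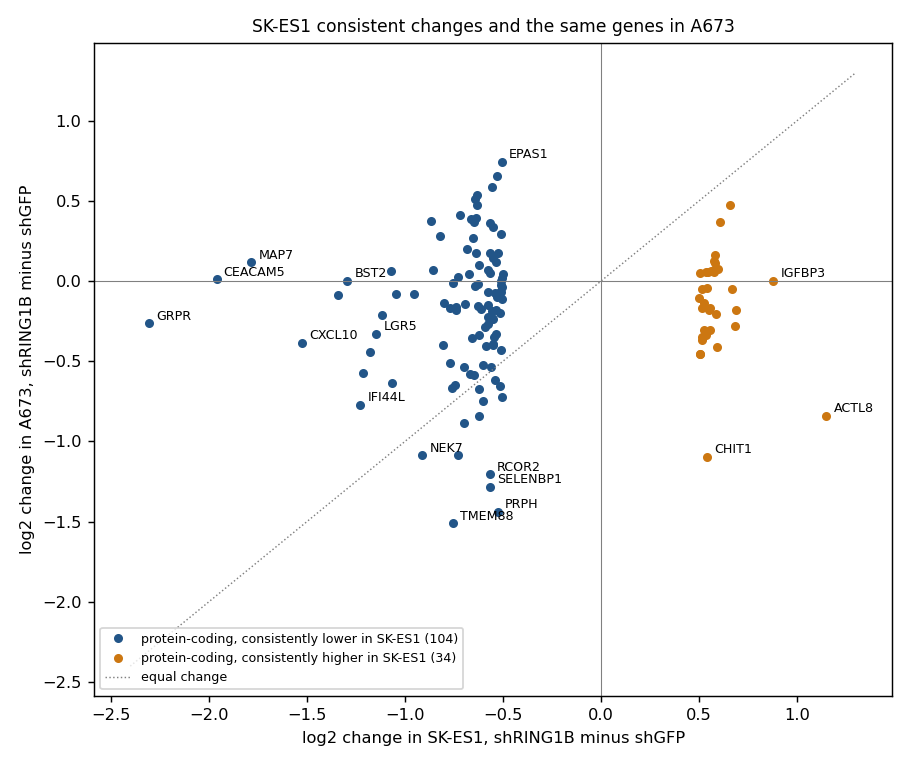
Each point is a protein-coding gene that was consistently lower (blue, 104) or higher (orange, 34) in SK-ES1, with its log2 change in SK-ES1 on the horizontal axis and in A673 on the vertical axis, and the dotted line marks equal change. GRPR, CEACAM5 and MAP7 lie far to the left near 0 in A673, NEK7 lies near the dotted line, and ACTL8 lies at 1.15 in SK-ES1 and -0.84 in A673.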

How the data were processed

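RNA from 4 SK-ES1 and 4 A673 samples was hybridised to Affymetrix whole-transcript arrays, 1 array per sample, per the labels' protocols. The deposited values are log2 expression per probe set. RMA and limma were used upstream, per the submitters' processing notes, with versions not given in the sources used here. RMA aligns the arrays by quantiles, which hides any shift common to most genes. Signal over background was not measured, and precision is limited by having 2 arrays a group.

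Of 48144 probe sets, 16098 (33.4%) had 1 gene symbol in the platform annotation and 32046 were unnamed here. Each of 14884 genes kept its brightest probe set, and 779 had several. Gene types came from RefSeq on GRCh38.p14. Limma 3.58.1 in R 4.3.3 fitted 4 group means to all 8 arrays (4 residual and 6 prior degrees of freedom), with two-sided p-values adjusted by Benjamini-Hochberg over all genes, and the fit was tested on simulated data. Replicate numbers follow accession order and only name arrays.

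The members, the 20 gene lists and the tests were chosen with earlier results of these data known. Genes were named by rule: the called genes, the 20 largest consistent changes per direction among protein-coding genes above the array median, and 5 members of smallest p per list role. The rule gave 224 genes; the called genes and the largest changes are all named, and the list members were reduced after their values were seen, to leave 77 in the text. A further 20 lie outside it. HERC6, IFITM3, PLSCR1, FRZB, TMEM88 and the class examples outside the lists were named after their values were seen. Alternatives covered normalization, dim genes, probe set choice, arrays fitted, variance model and single arrays left out.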

Additional observations from a re-analysis of the deposited data

Results flagged for a closer look

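For 9 of the genes named as called or as largest consistent changes, limma called the difference between the lines (SK-ES1 effect minus A673 effect), which is the reason they are listed here. On the log2 scale the difference was -2.04 for GRPR and -1.90 for MAP7 (limma adjusted p = 0.00562 for both), and each kept the call in 6 of 8 fits with 1 array left out. It was -1.97 for CEACAM5 (limma adjusted p = 0.0183, up to 0.111 with 1 array left out), -1.30 for BST2 (0.0162, up to 0.0914), -1.24 for IFI44 (0.0186, up to 0.112) and -1.14 for SP100 (0.0364, up to 0.163). For each of these 6 genes the SK-ES1 change was below 0. In A673 shGFP the mean levels of GRPR, MAP7, BST2 and SP100 were 4.15, 3.91, 3.85 and 3.83, near or below the array median. Such levels may limit the fall that can be measured there. For these 4 the difference between lines cannot be told apart from the lower starting level in A673. CEACAM5 and IFI44 stood at 4.54 and 5.18 there.

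The difference was above 0 for 3 genes. ACTL8 had a difference of 1.99 (limma adjusted p = 0.0114, up to 0.0723 with 1 array left out), from a change of 1.15 in SK-ES1 and -0.84 in A673, and its arrays did not overlap between hairpins in either line. CHIT1, a chitinase of macrophages, had a difference of 1.64 (limma adjusted p = 0.038, up to 0.144 with 1 array left out), from 0.54 in SK-ES1, near the array median, and -1.10 in A673. TRIM40, a ubiquitin ligase gene in the major histocompatibility region, had a difference of 0.83. Its limma adjusted p was 0.0487, and up to 0.128 in the alternatives that kept every array. It had 8 probe sets, and the brightest, used here, had an SK-ES1 change of 0.53. The others had changes of 0.21 to 0.41, under the 0.5 of the rule for consistent changes. With 1 array left out, ACTL8 kept its call in 5 of 8 fits and CHIT1 in 2 of 8. The calls for SP100 and TRIM40 were lost in all 8 fits that left out 1 array.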

How the results depend on the processing

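The count of 10 called genes was 16 with arrays centred on their median, 18 with dim genes left out, 34 with a trended, robust variance and 4 over all probe sets, named or not. The 10 themselves were among the genes called in the first 3 of these fits. With single arrays left out it ranged from 2 to 7, being 2 and 4 without SK-ES1 shGFP replicate 1 or 2, and 3 without either SK-ES1 shRING1B array. Consistently lower genes then numbered 139 to 270, consistently higher genes 63 to 204, and genes called for the difference between lines 0 to 72. The rule is easier to meet with 1 array in a group. The interferon list's median was -0.382 with median centring, -0.363 without dim genes and -0.367 to -0.286 with single arrays left out. Between 22 and 25 of its genes were consistently lower in every alternative. The medians of 19 of the 20 lists, the interferon list among them, moved by more than the spread between replicates in some alternative, and those of 11, none over 0.0483 in size, changed sign. Among named genes, CD99 (0.0789) changed sign without SK-ES1 shGFP replicate 2 or shRING1B replicate 1, ranging from -0.0307 to 0.188 with single arrays left out, and the others kept their direction in every alternative. No paired analysis was possible because the labels give no replicate numbers, and accession order does not pair arrays. Levels near the array median may limit how large a drop can be measured.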

Other observations

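Among the 32046 probe sets without a gene name here, 346 (1.08%) were consistently lower and 270 (0.843%) consistently higher by the rule used for genes. When all 48144 probe sets were tested together, limma called 4, and each of the 4 had a gene name.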
